A study of Mus musculus with 6 samples.

Results

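DNA methylation was examined around 8 genes of the Krueppel-like factor family, Klf2, Klf3, Klf4, Klf6, Klf7, Klf9, Klf10 and Klf13, in sorted endothelium of the mouse lung. The genes were taken from a given list, and each was studied over its RefSeq span (mm10) with 20 kb added on either side. These windows held 530 of the 1954255 measured tiles of 1 kb, and 8 of the 20450 protein-coding genes with such a window. The groups were Dnmt3a KO mice (3 samples) and WT mice (3 samples). The sources used here give neither the driver of the deletion nor the strain, age and sex of the mice. Whole-genome bisulfite sequencing reads cytosine methylation across the genome. The level of a tile is the percentage of methylation, and since it comes without read counts, its depth is unknown and intervals for counting error could not be set. Separate animals are not named in the labels, so the p-values speak of the spread among these samples only, which may be technical.

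Krueppel-like factors are transcription factors that bind GC-rich and CACCC sequences through zinc fingers at their carboxyl end. In endothelium, laminar blood flow induces Klf2 and Klf4 through a kinase cascade of MEKK3, MEK5 and ERK5 that activates MEF2 factors, and both then favour a quiescent, anti-inflammatory and anti-thrombotic state. Genes with promoters rich in CpG usually lie in an unmethylated valley, and Dnmt3a, a de novo DNA methyltransferase, is known to act on the borders of such valleys. The comparison asks how KO and WT differ inside the unmethylated cores of these genes and at the edges.

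The sequence before the start is shown for Klf2, Klf9 and Klf4, because the edges of Klf2 and Klf9 differed most between the groups and the core of Klf4 differed least. Each run holds the 250 bases before the start of the gene, 5′ to 3′ on the gene's strand, from RefSeq (GRCm38.p6), with CpG, the dinucleotide that carries the methylation, in capitals. Klf2 lies on the plus strand (chr8:72318812-72319061), Klf9 on the plus strand (chr19:23140976-23141225) and Klf4 on the minus strand (chr4:55532476-55532725).
Klf2: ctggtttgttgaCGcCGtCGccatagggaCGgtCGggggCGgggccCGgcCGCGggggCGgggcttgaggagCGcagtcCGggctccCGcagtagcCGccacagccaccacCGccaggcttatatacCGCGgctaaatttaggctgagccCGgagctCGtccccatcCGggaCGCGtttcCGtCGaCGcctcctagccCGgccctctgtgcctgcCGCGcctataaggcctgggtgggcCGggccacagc
Klf9: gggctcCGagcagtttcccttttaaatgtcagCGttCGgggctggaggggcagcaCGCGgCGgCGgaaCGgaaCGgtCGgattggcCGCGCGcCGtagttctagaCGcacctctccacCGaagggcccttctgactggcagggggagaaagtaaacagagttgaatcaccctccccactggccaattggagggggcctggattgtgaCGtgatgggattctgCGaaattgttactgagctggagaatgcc
Klf4: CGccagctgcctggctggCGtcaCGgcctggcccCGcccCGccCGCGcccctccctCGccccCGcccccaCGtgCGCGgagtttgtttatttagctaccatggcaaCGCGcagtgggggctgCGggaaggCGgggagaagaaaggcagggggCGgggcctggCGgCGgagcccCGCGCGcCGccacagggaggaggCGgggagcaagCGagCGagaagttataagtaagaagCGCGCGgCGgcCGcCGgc
These runs held 29 CpG for Klf2, 18 for Klf9 and 32 for Klf4, against a median of 10 over 16457 promoters of protein-coding genes. The Klf2 run also holds a match to the MEF2 consensus, which begins 118 bases before the start. In its surroundings, with the match in capitals, it reads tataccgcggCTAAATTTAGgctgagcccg. Of the 7 listed genes with a promoter sequence, Klf2 alone had such a match on either strand, and 2.66% of all promoters had one. CACCC or its complement GGGTG was present in the same interval of 5 of the 7 genes, with 5 matches for Klf3 and none for Klf4 and Klf6, and in 53.6% of all promoters.

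Each window was divided by level. The core of a gene was made of tiles with a mean under 10% over all 6 samples, in an unbroken run that meets the gene or the 2 kb beside it. The edge was made of the tiles within 3 kb of a core run that are not themselves under 10%, and the outer part was the rest of the window at 10% or more. The classes use measured levels of both groups alike, so the low level of the core is a property of the rule and not a result. Over the 8 genes there were 45 core tiles in 15 runs, 86 edge tiles and 395 outer tiles, and 4 more tiles belonged to unmethylated runs away from the genes. Klf2, Klf4, Klf9 and Klf10 had 1 core run each. Klf3 and Klf6 had 2, Klf7 had 3 and Klf13 had 4, and the further runs all lay inside the gene.

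Methylation was lower in KO over the windows of all 8 genes, while at 6 of the 7 gene starts measured the level was under 2% in both groups. In points, the differences were larger at the edges and in the outer parts than in the cores, which held little methylation to lose. They were largest at the edges of Klf2 and Klf9. The windows averaged 51.6% ± 0.857 in KO and 63.0% ± 0.390 in WT (SD, n = 3, mean over the 8 genes). A window was called lower at an adjusted p under 0.05 in limma, fitted to all genes, and a difference of at least 5 points. All 8 windows were called, against 57.6% of all genes, and in all 8 the KO samples lay below the WT samples, against 86.5%. After centring 6 were called, without Klf3 and Klf7, against 16.3% of all genes. After scaling to one mean level the same 6 were called, against 15.9%. The median difference of the 8 was -11.4 points, against -5.67 over all genes. All 8 listed genes have an unmethylated core, while the 20450 genes of this background include genes without one. Shares among genes with a core were not computed for windows. The window of Klf2 differed most, at 45.1, 44.0 and 46.1% in KO against 60.6, 58.3 and 62.2% in WT. That of Klf3 differed least, at 56.0, 53.7 and 55.1% in KO against 63.6, 62.2 and 61.9% in WT.

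Of the 530 tiles, 220 were called lower (41.5%), at an adjusted p under 0.05 in limma over all tiles and a difference of at least 10 points, against 16.2% of tiles in the whole table. None was called higher, against 0.0796% in the table. A single tile was higher at an unadjusted p under 0.05. It lies 15 kb upstream of the Klf9 core (chr19:23125001-23126000), with 21.3% ± 2.29 in KO and 12.9% ± 3.03 in WT (limma, adjusted p = 0.00646), under the 10-point minimum. By class, 1 of 45 core tiles was called lower (2.2%), against 2.82% of core tiles around all genes, and 9 of the 45 had the 10% in WT that a call needs. Of edge tiles 45.3% were called, against 41.1% around all genes, a share near that background. Of outer tiles 45.6% were called, against 18.4%. Outer tiles of a listed gene leave out that gene's own edge only. Those of the background leave out the edges of every protein-coding gene and include windows without a core, so these shares are not on quite the same measure. The number of tiles with a group mean under 10% was 64 in KO and 39 in WT, and 25 tiles lay under 10% in KO but not in WT, with 0 the other way round. Shares over all tiles were not computed for these counts, and the whole table was lower in KO. Nothing particular to these genes is read from them.

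**Figure D1:**
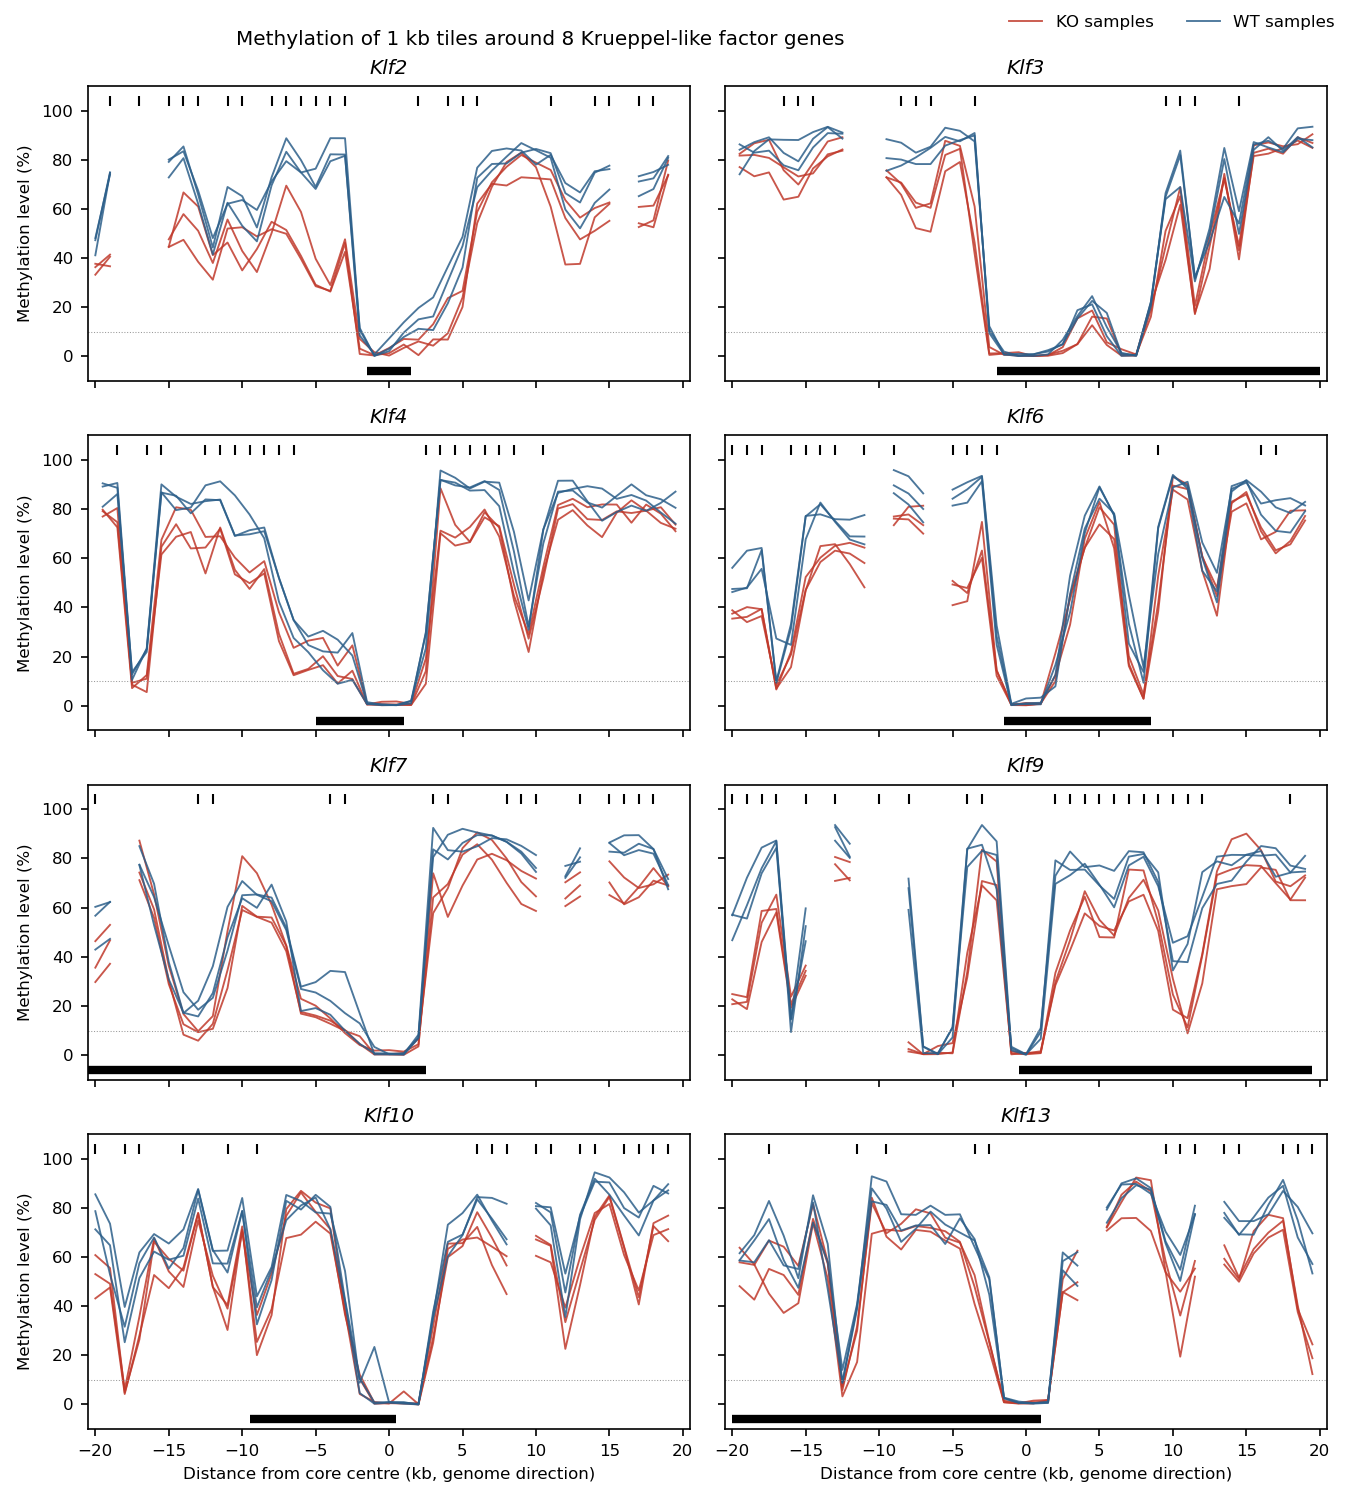
Methylation level (%) of 1 kb tiles against distance (kb) from the centre of the widest core run of each gene, in genome direction. Each line is 1 sample (red KO, blue WT), gaps are tiles with no value, the dotted line marks 10%, the black bar marks tiles in the gene, and ticks at the top mark tiles called lower in KO. The lines of KO and WT meet near 0% in the core, and the KO lines lie below the WT lines on the left of Klf2, which is upstream, and to the right of the Klf9 core, which is inside the gene.

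Cores held little methylation in both groups, by the rule that defines them. Over the 8 genes the core averaged 1.85% ± 0.230 in KO and 4.14% ± 0.578 in WT (SD, n = 3), a difference of -2.29 points. The KO level was 44.8% of the WT level in cores, 75.3% at edges and 83.3% in outer parts, given without a test. With WT core means under 10% no core could fall by 10 points, so that minimum was not used for them. An adjusted p under 0.05 was found in 5 of 8 cores (limma), against 22.4% of all genes. Without KO replicate 1, 2 or 3 it was found in 2 (Klf2 and Klf9) each time. It was found in 6 without WT replicate 1, and in 4 without WT replicate 2 or 3. The rule averages both groups, so a low KO level can bring tiles at 10% or more in WT into a core. With the limit set on WT alone, only Klf9 had an adjusted p under 0.05 (limma, 0.0198). Klf2 (0.412), Klf3 (0.312), Klf6 (0.411) and Klf13 (0.274) then did not. Shares over all genes were not computed for this limit or with a sample left out, so these counts of cores have no background. In 6 of the 8 cores no KO sample reached the lowest WT sample, against 39.7% of all genes. Centring the samples on their median tile takes -4.89 points off every difference, and 7 of the 8 core differences then turned positive. A core with less methylation in WT than this shift does so whatever its change. After scaling to one mean level all 8 stayed negative.

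Klf2, the flow-induced regulator of endothelial quiescence (chromosome 8, 72319062 to 72321654), had the highest core of the 8 in both groups. The core was at 3.77, 2.09 and 3.76% in KO against 6.68, 7.76 and 10.1% in WT (limma, adjusted p = 0.0104). The KO samples were all below the WT samples. With the core limit set on WT alone, the difference was -1.04 points and did not pass the test (limma, adjusted p = 0.412). The core tile before the gene was at 3.79% in KO and 10.3% in WT. The tile at the start had 0.883% in KO and 0.459% in WT, and from there the difference grew along the gene. The next tiles were at 1.71% in KO and 4.21% in WT, 5.15% in KO and 10.5% in WT, and, beyond the gene, 4.49% ± 3.45 in KO and 15.4% ± 4.24 in WT. This last was the core tile that was called lower (chr8:72322001-72323000, limma, adjusted p = 0.000501).

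Klf4, a factor induced by flow in the same pathway and known as a reprogramming factor (chromosome 4, 55527137 to 55532475), had a core near 0 in both groups. It was at 1.20, 0.364 and 0.604% in KO against 0.897, 0.800 and 0.844% in WT, and the groups overlapped (limma, adjusted p = 0.775). The core of Klf10, a gene induced by TGF-beta (chromosome 15, 38291464 to 38300711), was at 2.87, 2.23 and 2.37% in KO against 1.36, 6.68 and 2.68% in WT. Here too the groups overlapped (limma, adjusted p = 0.560). WT replicate 2 stood above the others through 1 tile (chr15:38299001-38300000), where it had 23.4% and no other sample was over 1.01%. The other 5 cores were at 0.883 to 2.63% in KO and 2.73 to 5.40% in WT. Of these Klf9, a glucocorticoid-responsive factor (chromosome 19, 23141226 to 23168129), had the smallest p, with 1.26, 0.745 and 0.641% in KO against 3.23, 3.87 and 4.92% in WT (limma, adjusted p = 0.00669). Its last tile, inside the gene, was at 1.13% in KO and 9.01% in WT.

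Gene starts, taken by position alone as the tiles that meet the 250 bases before to the 50 bases after the start, could be measured for 7 of the 8 genes, all except Klf10. With at most 5.38% in WT no start could fall by 10 points. An adjusted p under 0.05 was found in 0 of 7 starts (limma), against 17.3% of 15573 genes that were lower in KO, and Klf2 alone had an unadjusted p under 0.05. Of the 7, 6 lay between 0.505 and 1.23% in KO and between 0.292 and 1.51% in WT. The start of Klf2 was at 4.44, 1.86 and 0.709% in KO against 5.53, 5.92 and 4.70% in WT, a difference that did not pass the test (limma, adjusted p = 0.0622). It was the only one of the 7 with the KO samples below the WT samples, as in 33.8% of all genes. At Klf4 and Klf13 every KO sample lay above every WT sample, as in 2.07% of all genes. The differences there were 0.60 and 0.553 points, and neither passed the test (limma, adjusted p = 0.386 and 0.331).

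Edges were called lower in KO, with the 10-point minimum, at 6 of the 8 genes, against 44.5% of all genes with an edge. They averaged 45.0% ± 1.51 in KO and 59.8% ± 1.01 in WT (SD, n = 3), and the median difference was -12.1 points against -9.19 over all 13522 genes. All 8 edges had an adjusted p under 0.05 (limma), against 86.0% of all genes, and no edge had overlapping groups, with KO below WT in 84.8% of all genes. None was called higher, against 0.0074%. After centring and after scaling to one mean level, all 8 differences stayed negative, and 2 edges, those of Klf2 and Klf9, still met the 10-point minimum. That share is near the 21.8% of all genes after centring and 23.0% after scaling.

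**Figure D2:**
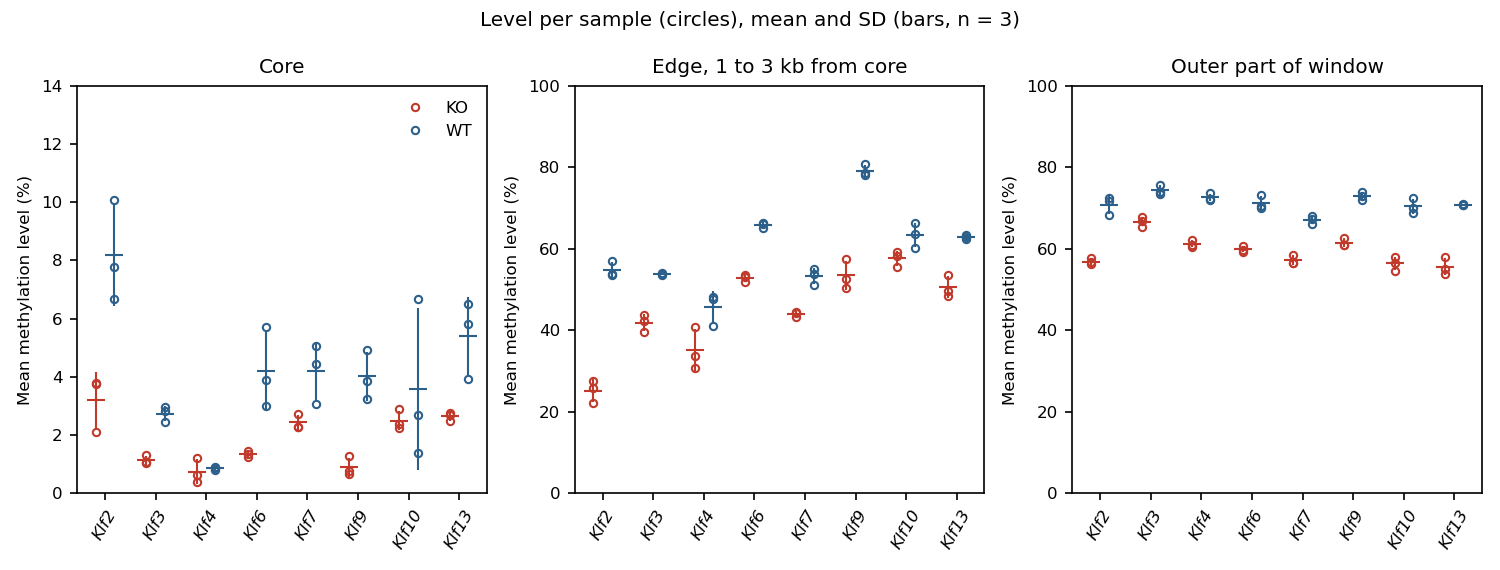
Mean methylation level (%) of the core, the edge and the outer part of each gene's window, with samples as circles (red KO, blue WT) and bars for mean and SD (n = 3). The y axis of the core panel ends at 14%, those of the others at 100%. Edges of Klf2 and Klf9 show the widest gaps between the groups, and the core of Klf4 has overlapping circles.

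The edge of Klf2 was at 25.7, 22.003 and 27.5% in KO against 53.7, 53.5 and 57.1% in WT. The groups were far apart, by -29.7 ± 1.89 points (SE; limma, adjusted p = 4.20e-08), a loss that 1.89% of all genes with an edge matched or exceeded. Its size depended on the rule, from -30.6 points with a core limit of 20% to -21.1 with the limit set on WT alone. The sides are given without a test. Upstream, the 3 edge tiles were at 35.1% ± 3.26 in KO and 79.6% ± 4.42 in WT, and all 3 were called. Downstream, they were at 15.03% ± 5.36 in KO and 29.9% ± 6.80 in WT, and 2 of 3 were called. The tile with the smallest p lies 2 kb before the core (chr8:72316001-72317000), with 29.1, 26.4 and 26.7% in KO against 88.8, 79.4 and 82.2% in WT (limma, adjusted p = 8.71e-09). It is part of the longest stretch of lower tiles in this window, 17 kb directly upstream of the core (chr8:72301001-72318000). Its 13 called tiles averaged 44.1% ± 2.44 in KO and 71.7% ± 1.88 in WT. The pseudogene Gm10282 and part of the non-coding gene Gm40505 lie in that stretch. The nearest protein-coding neighbour, Eps15l1, begins 19.3 kb beyond the other end of Klf2.

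The edge of Klf9 was at 50.4, 57.5 and 52.4% in KO against 80.8, 78.5 and 78.2% in WT. It differed by -25.7 ± 1.92 points (SE; limma, adjusted p = 1.43e-07). The side inside the gene averaged 46.7% ± 3.41 in KO, against 75.9% ± 2.04 in WT, and its 3 tiles were all called. The first tile of the gene beyond the core (chr19:23143001-23144000) was at 30.5% in KO and 73.9% in WT (limma, adjusted p = 2.89e-07). It opened a stretch of 11 called tiles in a row inside the gene (chr19:23143001-23154000), at 46.1% ± 1.85 in KO and 68.0% ± 1.04 in WT. On the upstream side, at 60.1% ± 4.56 in KO and 82.5% ± 4.92 in WT, 2 of 3 edge tiles were called. Beyond them lies another unmethylated run, 4 to 6 kb from the core, over the non-coding gene 2410080I02Rik. The tile on the far side of that run (chr19:23133001-23134000) was at 5.23, 1.48 and 2.49% in KO against 67.9, 59.1 and 71.8% in WT. This was the smallest p of all 530 tiles (limma, adjusted p = 2.52e-10). The 1 kb tile before it on the grid has no value in the table used here.

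Klf13 (chromosome 7, 63886351 to 63938915), a widely expressed repressor and activator of the family, had 23 edge tiles around 4 core runs. The edge was at 49.7, 48.4 and 53.7% in KO against 62.8, 62.4 and 63.3% in WT, and it fell by 12.2 points (limma, adjusted p = 2.85e-05). Its clearest tile lay beside a run inside the gene, 25.4 kb downstream of the start (chr7:63913001-63914000), with 8.56% ± 3.07 in KO and 56.2% ± 2.26 in WT (limma, adjusted p = 1.27e-09). This tile and the upstream tile of Klf9 were the 2 of the 530 with under 10% in KO and 50% or more in WT, as were 1247 tiles of the whole table. The far end of the gene held its longest stretch of lower tiles, 12 kb that span the last core run (chr7:63887001-63899000). Its 10 called tiles averaged 52.2% ± 1.94 in KO and 71.9% ± 1.85 in WT. Upstream of the run that holds the start, the 2 edge tiles averaged 49.5% ± 6.53 in KO, against 56.9% ± 4.79 in WT, and neither was called.

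Klf6, a factor that responds to injury (chromosome 13, 5861489 to 5870393), had an edge at 51.8, 53.0 and 53.5% in KO against 66.0, 66.4 and 65.1% in WT (limma, adjusted p = 5.18e-06). Upstream, the 3 tiles were at 41.7% ± 1.99 in KO and 69.5% ± 3.06 in WT and all were called. One of them (chr13:5858001-5859000) was at 45.4% ± 2.71 in KO and 87.2% ± 4.20 in WT (limma, adjusted p = 1.44e-07). The tile 1 kb inside the gene from the main run had 14.6% in KO, against 12.4% in WT, and was not called (limma, adjusted p = 0.596). The longest stretch of lower tiles lay further upstream (chr13:5841001-5854000), with 48.5% ± 0.966 in KO and 65.1% ± 3.11 in WT over 10 called tiles.

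Klf3, a repressor of the family that binds CtBP corepressors (chromosome 5, 64803521 to 64832901), had an edge at 43.7, 39.5 and 42.3% in KO against 53.7, 53.9 and 54.1% in WT (limma, adjusted p = 2.21e-05). The tile directly upstream of the core (chr5:64801001-64802000) was at 49.8% ± 10.02 in KO and 89.4% ± 1.76 in WT (limma, adjusted p = 1.24e-06). The 3 tiles inside the gene between its 2 runs were at 10.998% ± 3.12 in KO and 17.4% ± 1.26 in WT, and none was called. Klf3 had the smallest share of lower tiles, 15 of 64 (23.4%), and its longest stretch was 3 kb (chr5:64788001-64791000), at 72.7% ± 3.70 in KO and 84.1% ± 4.84 in WT. The gene Gm38457 overlaps the start of Klf3, so this core belongs to both.

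The edge of Klf4 was at 33.7, 30.7 and 40.8% in KO against 41.0, 47.6 and 48.1% in WT. It met the minimum narrowly, at -10.5 ± 2.61 points (SE; limma, adjusted p = 0.00233). The call ended without KO replicate 1 (-9.84 points), KO replicate 2 (-8.35), WT replicate 2 (-9.50) or WT replicate 3 (-9.26), and with an edge of 1 kb (-8.53). Upstream, the 3 tiles were at 53.2% ± 5.32 in KO and 70.6% ± 0.260 in WT and all were called. Downstream, along the gene, they were at 16.8% ± 5.23 in KO and 20.6% ± 8.04 in WT, and none was. Loss upstream went on to form a stretch of 9 kb (chr4:55534001-55543000), at 59.8% ± 1.89 in KO and 76.1% ± 1.87 in WT over 8 called tiles, where the non-coding genes Gm12506 and Gm34343 lie. The tile with the smallest p lies 14 kb from the core on the other side (chr4:55516001-55517000), with 64.6% ± 2.99 in KO and 87.9% ± 1.90 in WT (limma, adjusted p = 1.65e-05).

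The other 2 edges missed the 10-point minimum. Klf7, a factor known mainly from neurons (chromosome 1, 64029448 to 64122345), was at 44.5, 43.2 and 44.1% in KO against 51.2, 53.7 and 54.9% in WT, a difference of -9.34 points (limma, adjusted p = 0.000166). It missed only the 10-point minimum, which it passed without WT replicate 1 (-10.4). Its upstream side had 2 called tiles of 3, at 69.4% ± 2.73 in KO and 85.6% ± 2.16 in WT. The tile with the smallest p lay beyond the other end of this long gene (chr1:64022001-64023000), with 55.0% ± 2.72 in KO and 83.4% ± 4.32 in WT (limma, adjusted p = 1.14e-05). It belongs to a stretch of 14 kb (chr1:64010001-64024000), whose 12 called tiles averaged 55.5% ± 2.47 in KO and 72.8% ± 0.565 in WT. Klf10 was at 58.2, 55.6 and 59.2% in KO against 60.3, 66.2 and 63.5% in WT, a difference of -5.69 points (limma, adjusted p = 0.0118), and 0 of its 6 edge tiles were called.

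**Figure D3:**
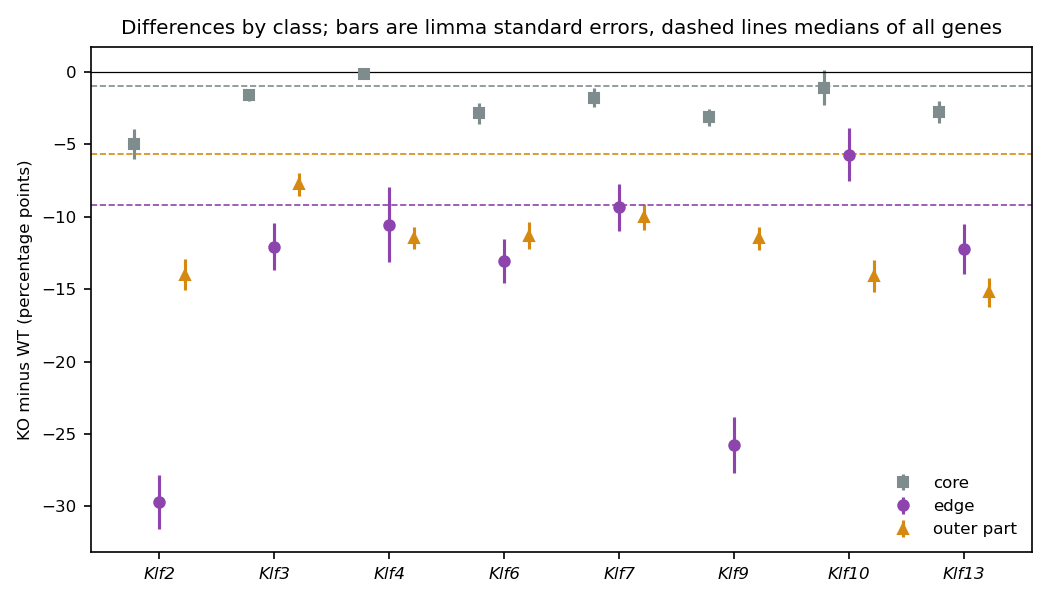
Difference in methylation level (KO minus WT, percentage points) of the core, edge and outer part of each gene. Bars are standard errors from limma and dashed lines the medians over all genes. Edges of Klf2 (-29.7) and Klf9 (-25.7) stand below their outer parts, while the edge of Klf10 (-5.69) stands above its outer part (-14.1).

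Edges were then compared with the core and the outer part of the same gene, each in 1 fit over all genes, chosen after the values were seen. A core near 0 cannot fall by more than its own level, so the first comparison largely restates the loss at the edge, and nothing more is read from it. The edge fell more than the core by at least 10 points in 5 of 8 genes (Klf2, Klf3, Klf4, Klf6 and Klf9), against 36.4% of all genes. It did in 3 without KO replicate 1, and in 3 without KO replicate 2. The edge fell more than the outer part by at least 10 points in 2 genes, Klf2 and Klf9, against 10.5% of all genes. At Klf2 the edge minus the outer part was -31.0, -34.2 and -30.2 points in KO against -17.9, -14.8 and -15.5 points in WT (limma, adjusted p = 2.29e-05). At Klf9 it was -12.3, -3.40 and -8.53 points in KO against 6.77, 6.45 and 5.30 points in WT (limma, adjusted p = 0.000177). Klf10 ran the other way, with 1.55, 0.938 and 1.27 points in KO against -12.2, -3.93 and -5.32 points in WT. Its difference of 8.39 points was under the minimum (limma, adjusted p = 0.00660).

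Outer parts were called lower in KO, with the 10-point minimum, at 6 of the 8 genes, against 16.8% of all genes, and in all 8 no KO sample reached a WT sample, against 86.1%. Klf3, at -7.75 points (limma, adjusted p = 1.33e-06), and Klf7, at -9.998 points (limma, adjusted p = 3.83e-07), missed only the minimum. Klf7 met it without KO replicate 3 (-10.7) or WT replicate 1 (-10.6). The 8 outer parts averaged 59.4% ± 0.763 in KO and 71.3% ± 0.790 in WT (SD, n = 3), with a median difference of -11.5 points against -5.66 over all genes. The 20443 genes of this background include genes without a core, which all 8 listed genes have. Shares among genes with a core were not computed for outer parts. The outer part of Klf13 differed most, at 53.8, 55.1 and 57.9% in KO against 70.9, 70.7 and 70.8% in WT (limma, adjusted p = 2.91e-08). That of Klf10 was at 56.6, 54.6 and 58.0% in KO against 72.5, 70.1 and 68.9% in WT (limma, adjusted p = 1.01e-07). In it a stretch of 15 kb (chr15:38306001-38321000) averaged 60.3% ± 1.54 in KO, against 78.7% ± 1.56 in WT, in 12 called tiles. It lies past the higher end of the gene, along the non-coding gene Gm35248. On the other side, 16 kb from the core, a tile (chr15:38282001-38283000) was at 6.07, 4.26 and 4.85% in KO against 39.7, 31.6 and 25.3% in WT (limma, adjusted p = 3.60e-07). After centring or scaling, only the outer part of Klf13 met the 10-point minimum, against 3.39% of all genes after centring and 3.32% after scaling, and all 8 differences stayed negative.

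By distance, the difference around these genes stayed between -15.0 and -11.9 points from 1 to 20 kb. Tiles 1 kb from a core were at 28.8% ± 0.528 in KO and 43.7% ± 0.979 in WT, and those 11 to 20 kb away were at 60.1% ± 0.287 in KO and 72.1% ± 0.759 in WT. Distance was measured to the gene's own core for the listed genes. For the background it was measured to the nearest core of any protein-coding gene, so the values are not on quite the same measure. Around all genes the difference was -12.9 points at 1 kb and -7.19 at 11 to 20 kb. Of tiles at 11 to 20 kb 46.2% were called near the listed genes, against 23.2% around all genes. These are descriptions of a chosen list, and tiles of 1 window are not independent.

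The unmethylated width was measured in each sample by itself, as the total length under 10% over all runs that meet the gene. In 3 genes, Klf2, Klf7 and Klf13, it was wider in every KO sample than in any WT sample, as in 23.7% of genes with a run, and in none was it narrower, against 0.0488%. For Klf2 it was 7, 7 and 5 kb in KO against 3 kb in each WT sample. For Klf7 it was 13, 12 and 12 kb in KO against 10, 7 and 8 kb in WT, summed over its runs. For Klf13 it was 10, 10 and 9 kb in KO against 8, 5 and 6 kb in WT, also summed over its runs. Two-sided exact permutation tests of 3 against 3 samples cannot go below p = 0.10, the value of each of these 3 genes. In the other 5 genes the groups overlapped, among them Klf4 with 4, 6 and 4 kb in KO and 5, 4 and 4 kb in WT. At a limit of 20% the runs of 4 genes, Klf3, Klf7, Klf9 and Klf13, were wider in every KO sample, against 31.0% of genes, and those of Klf2 overlapped (7, 7 and 6 kb in KO against 6, 6 and 5 kb in WT). At a limit of 5% the runs of 5 genes were wider in every KO sample, against 19.2% of genes.

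**Figure D4:**
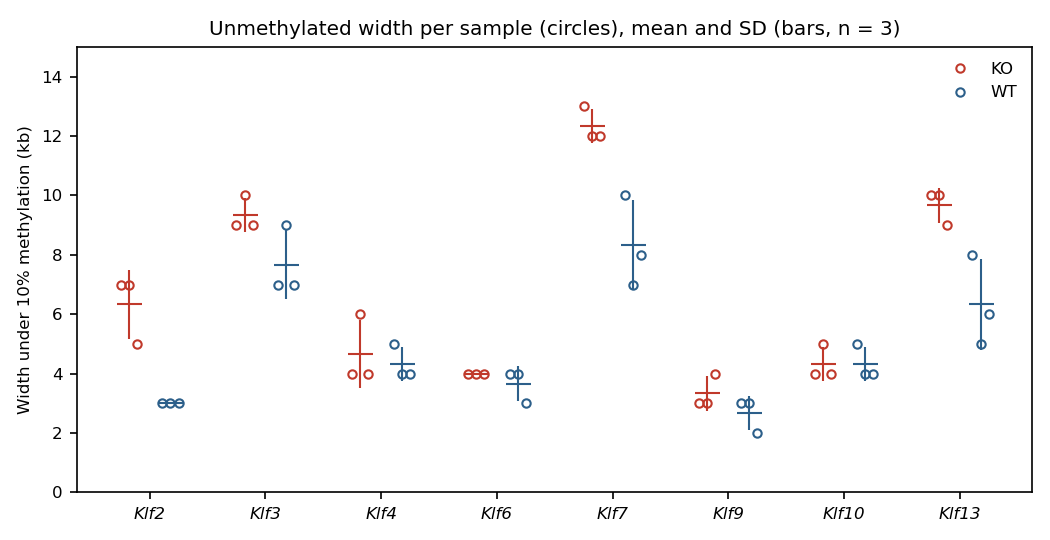
Total width (kb) of the runs under 10% methylation that meet each gene, in each sample (circles, red KO, blue WT), with mean and SD (bars, n = 3). In Klf2, Klf7 and Klf13 every red circle lies above every blue one.

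Other genes of the Klf and Sp family and of the flow pathway were counted on the same measure, from lists chosen with earlier results of these data known. Of 18 other Klf and Sp family genes 16 had an edge, of which 12 fell by at least 10 points in KO, with a median of -13.3 points over the list. An adjusted p under 0.05 (limma) for a lower level was found in 14, against 86.0% of all genes, and none had one for a higher level. The 12 included Sp5, a target of Wnt signalling (30.7% ± 2.23 in KO, 60.03% ± 0.915 in WT), Sp7, a regulator of bone formation (39.6% ± 1.34 in KO, 60.7% ± 2.47 in WT), and Sp6 (23.6% ± 1.86 in KO, 43.9% ± 1.47 in WT). The edge of Sp3 was at 50.03% ± 2.60 in KO and 49.5% ± 4.30 in WT. Of the 16 genes of flow sensing and of the MEK5, ERK5, MEF2 and CCM pathway, 9 edges fell by at least 10 points, 14 had an adjusted p under 0.05 (limma) for a lower level and none rose, with a median of -10.7 points. The largest of these was at Plxnd1, a semaphorin receptor and flow sensor, with 27.1% ± 1.27 in KO and 56.8% ± 2.64 in WT. Mef2d, which encodes a MEF2 factor, was at 38.2% ± 2.04 in KO and 57.7% ± 1.10 in WT. Mef2c, of the same family, was at 29.1% ± 1.63 in KO and 48.6% ± 2.31 in WT. Mapk7, which encodes ERK5, had 80.3% ± 3.05 in KO, against 85.7% ± 1.08 in WT, and missed only the minimum (limma, adjusted p = 0.0112). Of 15 flow-responsive targets 11 had an edge, of which 8 fell by at least 10 points, 11 had an adjusted p under 0.05 (limma) for a lower level and none rose, with a median of -17.5 points. The 8 included the connexin gene Gja4 (32.1% ± 1.64 in KO, 53.1% ± 0.434 in WT), Nos3, which makes nitric oxide in endothelium (47.3% ± 0.972 in KO, 68.1% ± 2.38 in WT) and adrenomedullin Adm (45.4% ± 2.78 in KO, 68.8% ± 2.84 in WT). Over all genes the median was -9.19 points and 44.5% of edges fell by at least 10 points. The core of Nos3, at 2.19% ± 1.38 in KO and 13.998% ± 3.23 in WT, was the only core of the 3 lists that fell by at least 10 points (limma, adjusted p = 0.00256), against 0.429% of all genes. Its WT level is above the 10% core limit, which is set on the mean of both groups. Part of this core was thus counted as core only because KO was low, and its loss is partly built into the rule. Whole windows were called lower in 15 of 17, 13 of 16 and 15 of 15 genes of the 3 lists in this order, against 57.6% of all genes.

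**Figure D5:**
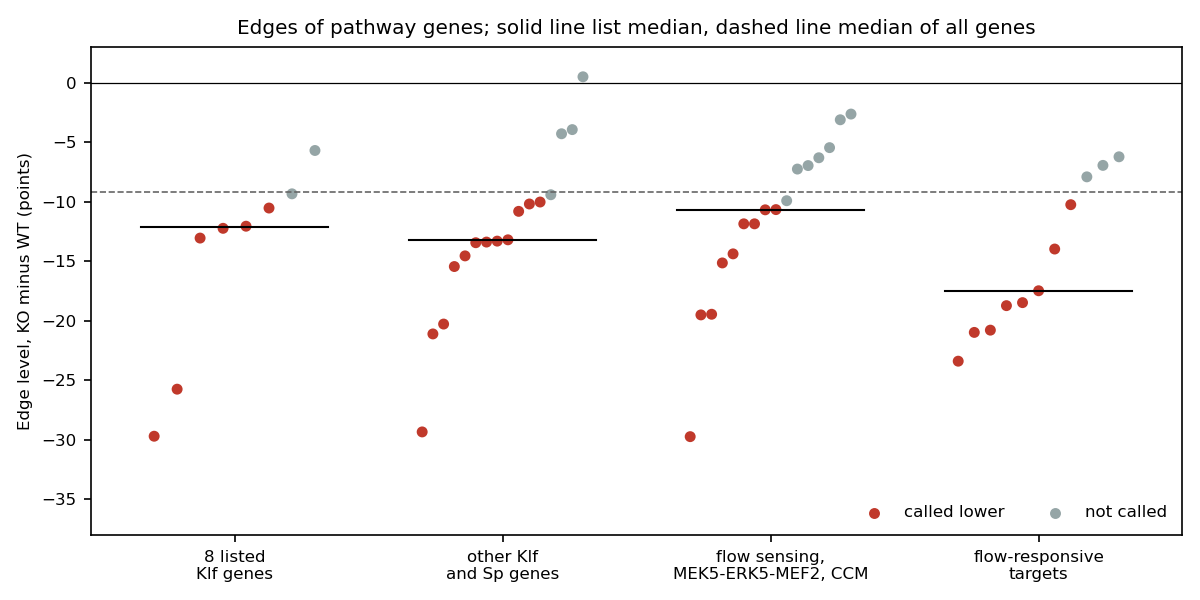
Edge level, KO minus WT (points), of the 8 listed Klf genes and of 3 lists of family and pathway genes. Each point is a gene, red where called lower with the 10-point minimum, with solid lines for list medians and a dashed line for the median of all genes (-9.19). Klf2 (-29.7) lies beside Sp5 (-29.3) and Plxnd1 (-29.7) at the low end.

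Likeness to a gene was measured as the root mean square difference over 12 values, the core and edge level in each of the 6 samples, against 13522 genes. Nearest to Klf2 were Casz1 (2.08 points), Nfix (2.28) and Unc5b (2.39). Their edges were at 27.7, 25.9 and 23.6% in KO and at 55.0, 56.3 and 54.8% in WT. Nearest to Klf4 were Klf11 (2.07 points), Ptov1 (2.19) and Pcgf3 (2.31). Their edges were at 34.9, 35.2 and 37.5% in KO and at 45.7, 44.8 and 48.9% in WT.

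Over the whole table the mean level was 63.5 to 63.8% in the KO samples and 68.7 to 69.5% in the WT samples. Gene starts of endothelial markers were low, with 3 of 4 measured under 10% in each group (Tek, Kdr and Erg), and Tie1 was at 11.3% in KO and 17.5% in WT. Those of the leukocyte markers Ptprc, Cd3e and Itgam were between 64.2 and 78.6% in KO and between 69.6 and 77.7% in WT. Of 2 epithelial starts measured, Nkx2-1 was under 10% in both groups and Epcam was at 8.46% in KO and 17.3% in WT. Of 3 mesenchymal starts, Pdgfra was under 10% in both groups, so a low start does not mark the cell type, and 2 were called lower. These were Tcf21, at 1.12% ± 1.44 in KO and 57.8% ± 6.61 in WT, and Acta2, at 34.0% ± 5.24 in KO and 52.2% ± 7.85 in WT. Whether other cell types take part in the differences above was not tested.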

How the data were processed

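Tagmentation-based whole-genome bisulfite sequencing was done on 30 ng of DNA per sample with 3 libraries each, sequenced from both ends over 100 bases, per the labels' protocols. BWA 0.7.8 and mm10 are named in the submitters' processing notes. The deposited table gives a fraction from 0 to 1, the methylation level, per 1 kb tile, per the file headers. No caller, smoothing or coverage filter is given in the sources used here. Deviations of adjacent tiles from their group mean correlated at r = 0.531 to 0.553 across tiles, so neighbouring calls are not independent. Depth is unknown.

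Fractions were turned to percent. limma 3.58.1 (R 4.3.3) with a variance trend and Benjamini-Hochberg adjustment was fitted to all tiles, and to cores, edges, outer parts, windows and starts of all protein-coding genes. The fits were checked on simulated data with independent noise, in which cores were only raised. That check does not cover the correlation of adjacent tiles or small losses in cores. Genes and starts came from RefSeq tables of GRCm38.p6 (mm10). Merged stretches allowed a gap of 1 kb, and their levels are means over the called tiles only, which were chosen for being lower in KO. Promoter matches were searched on both strands in the 250 bases before the first listed start. The 8 genes were all named, with their best tile and longest stretch, and of each list up to 3 called edges, by p. Sp3, Mapk7 and the Nos3 core were singled out after their values were seen. Genes, lists and tests were chosen with earlier results of these data known. Replicate numbers did not pair the samples, so no block was used. Alternatives were other scalings, limits, distances, window sizes, a logit scale, no minimum difference, and leaving out each sample. Python 3.11.15 was used, with pandas 2.3.3, numpy 2.4.6 and matplotlib 3.10.9.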

Additional observations from a re-analysis of the deposited data

How the results depend on the processing

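The greater loss at the edges of Klf2 and Klf9 than in their outer parts was called under each alternative run for it. Those that could have removed the call were scaling, leaving out each sample and the replicate block. Centring cannot change a difference between levels of the same sample, and dropping the minimum cannot remove a call. Other core limits, edge distances and window sizes were not run for this comparison. All 8 windows were called except after centring and after scaling, which each left 6 (Klf3 at -2.70 and -2.84 points and Klf7 at -4.50 and -4.86 were under the 5-point minimum). After centring on the median, 108 tiles were called lower and 1 higher, 2 edges and 1 outer part were called, and the mean difference was 2.61 points over cores, which is reversed, and -9.90 over edges. After scaling to one mean level, 108 tiles were lower and 1 higher, 2 edges, 1 outer part and 2 edges against their cores were called, and the edge difference was -10.6 points. The share of all tiles called was not computed for centring or scaling, so these tile counts have no background to be set against. With no minimum difference, 1 tile was higher, 5 cores were lower and 8 edges fell more than their cores. Windows of 10 kb held 142 lower tiles and windows of 50 kb held 425. The core difference was -3.18 points with a limit of 20%, -1.06 with the limit set on WT alone and -3.53 with it set on KO alone. The cause of these changes was not tested. At a limit of 5%, 5 genes were wider in KO in all samples, against 19.2% of genes.

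Leaving out each sample in turn gave 188 to 212 lower tiles and 0 higher ones, 5 to 7 edges and 8 windows called. It gave core differences from -2.62 to -2.10 points, edge differences from -15.6 to -14.1, 3 to 4 genes wider in KO, 6 to 7 outer parts, 3 to 6 edges that fell more than cores and 2 to 2 that fell more than outer parts. Shares over all genes and tiles were not computed with a sample left out. Same-numbered KO and WT samples did not deviate together (r = 0.00563, -0.00321 and 0.0110 across tiles), so the numbers were not taken as pairs. With the replicate block 218 tiles were lower, with 4 calls lost and 2 gained, and 6 edges were called. None of the 55 gene values refitted changed its call. For cores and starts a call was out of reach, since their WT levels lay under the minimum difference. By adjusted p alone, the core of Klf3 no longer passed with the block (limma, 0.0530 against 0.022 without it). The start of Klf2 did pass with the block (limma, adjusted p = 0.0498 against 0.062 without it). The other cores and starts stayed on the same side of the p limit. The values carry no read counts, so depth limits could not be set.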
